A study of Mus musculus with 9 samples.

Results

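Serpinb1a encodes a clade B serpin, an inhibitor of serine proteases that stays inside the cell that makes it. It was 1 of the 41388 genes in the deposited table and 1 of the 11599 whose mean level allowed a test. It was selected on its measured levels in these same cultures, so its own values are given as a description, with no p-value. RNA-Seq was done on 9 libraries from murine Tc17 cells, CD8+ T cells that produce IL-17. The cells were obtained from naive CD62L+CD44-CD8+ T cells of C57BL/6 lymph node and spleen and were cultured for 2 days on plate-bound anti-CD3 (5 µg/ml) with anti-CD28 (0.5 µg/ml), IL-2 (50 U/ml), TGF-β (0.5 ng/ml), IL-6 (30 ng/ml) and anti-IFN-γ (5 µg/ml). The 3 groups, with 3 libraries each, were cultures with 0.2% of the solvent DMSO (Ctrl), with 20 µM dimethyl fumarate (DMF), and with 20 µM DMF together with 50 µM glutathione (DMF + GSH). The labels give the DMSO concentration for Ctrl alone, so that it is not known to be the same in the other groups. The study's methods describe adult mice matched for age and sex. Nothing in the labels says whether libraries of a group came from separate mice or separate cultures, so that p-values measure only the spread between these samples.

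Serpins inhibit by bait. An exposed loop is cut by the protease, and the serpin then changes its shape and traps the enzyme in an inactive complex. The human counterpart of Serpinb1a, SERPINB1, is the elastase inhibitor of neutrophils and monocytes, known for blocking neutrophil elastase, proteinase 3 and cathepsin G, and the mouse gene has also been described in T cells that produce IL-17. DMF is an ester of fumaric acid that reacts with thiol groups, glutathione among them, and glutathione is the main small thiol that buffers oxidants in the cell. The question of the design was which changes under DMF are lessened when glutathione is supplied.

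Serpinb1a (ENSMUSG00000044734) lies on the reverse strand of chromosome 13 in GRCm38, chr13:32842092-32851185, is annotated as protein coding, and no other annotated gene overlaps it. Its annotated exons cover 2303 bases, and the transcript Serpinb1a-201 has 7 exons, 1918 bases and a coding part of 1137 bases without the stop codon. The pseudogene Serpinb1-ps1 lies 8.8 kb from it, and the close copies Serpinb1c and Serpinb1b lie at 30.2 kb and 227.4 kb. Over the aligned coding bases, Serpinb1a was 90.4% identical to Serpinb1b and 89.7% identical to Serpinb1c. The reads were 50 bases long, and the stretches below are shown because they decide whether a read of that length can be told apart from its copies. In a coding stretch of exon 3, all 3 genes had the same 50 bases, at chr13:32848635-32848684 for Serpinb1a (reverse strand), chr13:33087488-33087537 for Serpinb1b (forward strand) and chr13:32888888-32888937 for Serpinb1c (reverse strand), so that a read from here fits each of them.
Serpinb1a, Serpinb1b and Serpinb1c: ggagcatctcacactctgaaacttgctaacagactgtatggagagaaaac
The second stretch, from exon 5, was chosen among stretches without gaps inside 1 exon as the one whose more similar copy had the most differences. It lies at chr13:32845695-32845744 for Serpinb1a (reverse strand), chr13:33091387-33091436 for Serpinb1b (forward strand) and chr13:32884245-32884294 for Serpinb1c (reverse strand), and capitals mark the bases that differ from Serpinb1a, 11 in Serpinb1b and 10 in Serpinb1c.
Serpinb1a: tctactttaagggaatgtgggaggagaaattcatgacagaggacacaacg
Serpinb1b: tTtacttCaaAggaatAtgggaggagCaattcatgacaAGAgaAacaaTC
Serpinb1c: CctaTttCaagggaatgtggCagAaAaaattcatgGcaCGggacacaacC

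Of the 2277 different stretches of 50 bases in the 4 annotated Serpinb1a transcripts, 64 (2.81%) also occurred in a transcript of another gene, in every case Serpinb1b, Serpinb1c or Serpinb1-ps1. These copies were near 0 in the data. Serpinb1b reached at most 1.48 normalized counts in any library and Serpinb1c at most 0.929, and Serpinb1-ps1 had 0 reads in all 9 libraries. A normalized count is the number of reads of a gene divided by a factor for the depth of its library. The sources used here do not give how reads that fit several genes were counted.

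The libraries held between 7671772 and 14511926 reads, with Ctrl replicate 3 the shallowest. The 10 markers of CD8 T cells, led by Cd8a, checked the labelled cell type and summed to between 46873 and 57118 normalized counts in every library. Among 17 markers of neutrophils and other myeloid cells, S100a8, S100a9 and Retnlg were at 0 throughout. Ctrl replicate 3 stood apart in this list. It held 119 normalized counts of Lyz2 and 58.3 of Csf1r, 2 genes of macrophages, while the other 8 libraries had at most 10.6 and 5.83. The summed level of the list ranged from 90.4 to 340 in Ctrl, from 62.4 to 76.2 with DMF and from 93.3 to 97.9 with DMF + GSH. In the 8 libraries other than Ctrl replicate 3, most of this sum was Cd68. The DMF libraries held 44.5 to 64.2 normalized counts of Cd68, against 69.0 to 82.5 elsewhere. Cd68 did not pass the threshold given below between DMF and Ctrl (log2 fold change −0.47, adjusted p = 0.0703, limma). Ctrl replicate 3, with the most myeloid RNA, was also the Ctrl library with the least Serpinb1a. The summed level of 5 dendritic cell markers, led by Xcr1, was 64.0 to 88.2 in Ctrl, 18.0 to 23.2 with DMF and 41.8 to 82.5 with DMF + GSH. That of 4 NK cell markers, nearly all of it Eomes, was 15.8 to 54.0, 123 to 139 and 21.5 to 57.2. The 4 CD4 T cell markers, led by Foxp3, a factor of regulatory T cells that CD8+ T cells can also make under TGF-β, summed to 638 to 964, 1125 to 2529 and 547 to 999. For 5 B cell markers the sums were 68.3 to 92.0, 58.1 to 81.3 and 60.3 to 89.8, and for 5 markers of gamma delta T cells, Trdc not among them, 22.9 to 28.8, 13.5 to 25.4 and 22.3 to 30.1. In every DMF library the summed levels of the myeloid and dendritic cell lists were thus below, and the levels of Eomes and Foxp3 above, those in all other libraries. The dendritic cell sum was mostly Xcr1, with 69.6, 69.7 and 55.5 in Ctrl and 13.8, 14.6 and 16.5 with DMF. With DMF + GSH Xcr1 had 67.1, 52.7 and 33.1. Clec9a, Siglech and Flt3 had at most 1.10, 0.929 and 6.60 normalized counts in any library. Itgax had 2.57 to 5.81 with DMF and 5.94 to 15.8 elsewhere. The other 3 NK cell markers were at 0 with DMF, and Cd4 and Cd40lg had at most 4.40 and 5.83 normalized counts in any library. Zbtb7b, the remaining CD4 T cell marker, had 54.0, 72.5 and 48.3 in Ctrl and 68.8, 86.5 and 58.1 with DMF. With DMF + GSH it had 37.4, 78.7 and 55.4. It was higher with DMF in all 3 replicate numbers but did not pass (log2 fold change 0.28, adjusted p = 0.431, limma). Eomes (2.35, adjusted p = 0.00276) and Xcr1 (−2.05, adjusted p = 0.00297) passed the threshold given below between DMF and Ctrl, by limma. Foxp3 did not (1.29, adjusted p = 0.0221, limma), but it passed in 3 of 21 settings, the replicate block among them. The part of these cell types in the values below was not tested. In bulk RNA, fewer cells with Serpinb1a and less Serpinb1a RNA per cell cannot be told apart.

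In Ctrl cultures, Serpinb1a stood at 1024, 1229 and 653 normalized counts in replicates 1, 2 and 3. With DMF it stood at 79.3, 128 and 71.6. With DMF + GSH it stood at 556, 800 and 377. Every DMF library was lower than each of the other 6, whereas the Ctrl and DMF + GSH libraries overlapped, since DMF + GSH replicate 2 was higher than Ctrl replicate 3. Within each group replicate 2 was the highest and replicate 3 the lowest, so that the levels of the replicate numbers kept 1 order under all 3 conditions.

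The group means were 968 ± 292 normalized counts (SD, n = 3) in Ctrl, 93.1 ± 30.8 with DMF and 578 ± 212 with DMF + GSH. The SD was 30.2%, 33.1% and 36.8% of the mean, so that the relative spread between libraries was of like size at all 3 levels. The values rest on 985, 1323 and 459 reads in Ctrl, on 75, 150 and 74 reads with DMF and on 505, 1078 and 388 reads with DMF + GSH. At 75 reads, the exact 95% Poisson interval of DMF replicate 1 ran from 62.4 to 99.5 normalized counts. That of Ctrl replicate 3, the lowest Ctrl value, ran from 594 to 715. These intervals cover counting error only.

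**Figure D1:**
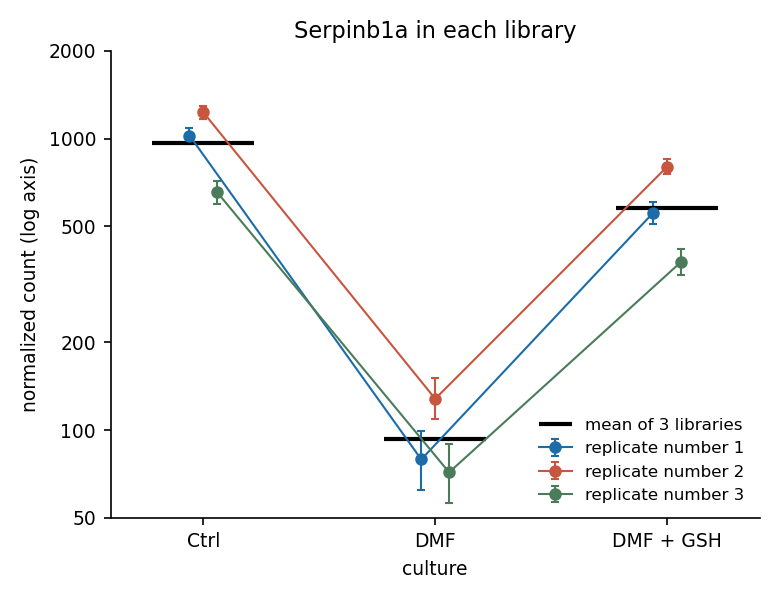
Normalized counts of Serpinb1a (log axis) in the 9 libraries, by culture, with lines joining libraries of the same replicate number, bars for the exact 95% Poisson interval of the reads, and black lines for the mean of 3 libraries. The DMF libraries, between 71.6 and 128, lie below all others, and the lines of the 3 replicate numbers run nearly parallel.

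Per kilobase of exon, a scale on which genes can be compared, Serpinb1a had a mean of 421 normalized counts in Ctrl, 40.4 with DMF and 251 with DMF + GSH. In Ctrl it was above 89.1%, 91.5% and 80.5% of the 11544 tested genes with a known exon length, in replicates 1, 2 and 3. With DMF it was above 29.2%, 38.9% and 27.9% of them. With DMF + GSH it was above 77.7%, 84.9% and 67.4%. Serpinb1a thus stood above most genes in every Ctrl and DMF + GSH library and below most genes in every DMF library.

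Paired by replicate number, Serpinb1a with DMF was 7.75%, 10.4% and 11.0% of its Ctrl level in numbers 1, 2 and 3, on average 9.72 ± 1.73% (SD, n = 3). As folds these are 12.9, 9.57 and 9.11, with 95% counting intervals of 10.2 to 16.5, 8.08 to 11.4 and 7.12 to 11.8. On the scale of log2(normalized count + 1), the differences were −3.67, −3.25 and −3.17. The fit across all genes with limma, with the preparation batch as covariate, gave a log2 fold change of −3.36 (SE 0.318). Blocking on the replicate number instead of the batch left the estimate as it was, with an SE of 0.0982. Without Ctrl replicate 3, the library with the myeloid transcripts, the log2 fold change was −3.65.

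On the scale of log2(normalized count + 1), that log2 fold change was the 2nd lowest of the 11599 genes tested, whose median was 0.01. The lowest was Cd7, a surface molecule of T and NK cells, at −3.70 with an SE of 1.12 and an adjusted p of 0.0352. Cd7 had 224, 159 and 48.3 normalized counts in Ctrl and 18.0, 41.9 and 0 with DMF. With that 0, its fold change and its place depend on the 1 added to each count. Cd7 was named after its values were seen. The next after Serpinb1a was Klrb1f, a lectin-like receptor gene of the NK complex, at −3.14, with at most 6.77 normalized counts in a DMF library. Serpinb1a was the gene of these 3 with the highest level in Ctrl and the smallest SE.

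**Figure D2:**
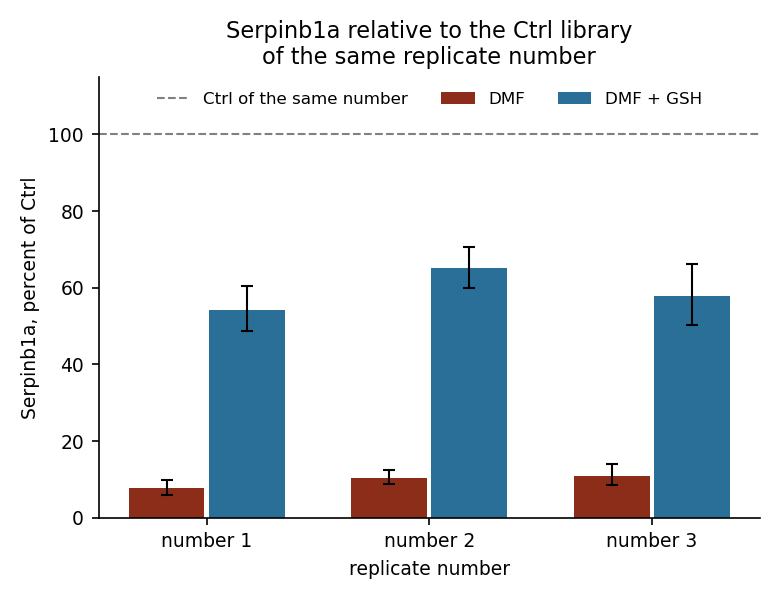
Serpinb1a with DMF (dark red) and with DMF + GSH (blue) as a percentage of the Ctrl library of the same replicate number (dashed line at 100), with bars for the 95% counting interval of the ratio. DMF lies at 7.75% to 11.0% and DMF + GSH at 54.3% to 65.1% in the 3 numbers.

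With glutathione added to DMF, Serpinb1a was 7.0, 6.23 and 5.27 times its level with DMF alone in numbers 1, 2 and 3, with 95% counting intervals of 5.49 to 9.05, 5.25 to 7.44 and 4.10 to 6.85. The log2 differences were 2.79, 2.63 and 2.38, and the limma fit gave a log2 fold change of 2.60 (SE 0.318). On the scale of log2(normalized count + 1), only Cd7 (3.11) and Nav2 (2.75) had a higher one among the 11599 genes. The value of Cd7 depends on the 1 added to its count of 0 in DMF replicate 3. The comparison shares its DMF libraries with the comparison above, so that a low value in them moves both.

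Compared with Ctrl, Serpinb1a with DMF + GSH was 54.3%, 65.1% and 57.8% of the level in the Ctrl library of the same number, on average 59.1 ± 5.53% (SD, n = 3). The 95% counting intervals of these ratios, which leave out the spread between cultures, were 48.7% to 60.5%, 60.0% to 70.6% and 50.4% to 66.3%. The log2 differences were −0.88, −0.62 and −0.79, all of them negative and with an SD of 0.133. The fitted log2 fold change of −0.76 had an SE of 0.318 with the batch as covariate and of 0.0982 with the replicate block. It was −1.05 without Ctrl replicate 3 or without DMF + GSH replicate 2, and −0.46 without DMF + GSH replicate 3. The groups as a whole overlapped.

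How far glutathione restored Serpinb1a depends on the scale. In normalized counts, the DMF libraries were lower than Ctrl by 944, 1101 and 581, and the DMF + GSH libraries were higher than DMF by 476, 672 and 306, which is 50.4%, 61.1% and 52.6% of the loss, on average 54.7 ± 5.61% (SD, n = 3). On the log2 scale the share of the fall that was left with glutathione was 0.240, 0.190 and 0.249, and 0.227 from the fit. The fitted share was 0.137 without DMF + GSH replicate 3 and 0.313 without DMF + GSH replicate 2. The linear share, which weighs transcripts, thus gives a smaller recovery than the log2 share, which weighs folds, from the same 9 values.

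A gene was called when its adjusted p by limma (Benjamini-Hochberg) was under 0.01 and its log2 fold change was 0.75 or more in size. By this threshold 335 of 11599 genes (2.89%) differed between DMF and Ctrl. Of these, 194 (1.67%) were lower and 141 (1.22%) higher with DMF, and Serpinb1a was counted among the lower ones by the contrast on which it was chosen. The number of genes changed with the design and with single libraries. It was 789 with the replicate block, 43 when the DMF + GSH libraries were left out of the fit, and between 2 (without Ctrl replicate 1) and 680 (without Ctrl replicate 3) with 1 library left out.

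Among the 194 genes called lower, the median part of the fall in normalized counts that returned with glutathione was 78.6%, with quartiles of 66.5% and 88.5%. Serpinb1a, at 55.4% from the group means, was below 172 and above 21 of the others. The 22 genes that fell by 2 or more on the log2 scale had a median of 68.4%. Of these 22, Klrb1f (53.9%), Il1r1 (54.8%), Ggt1 (49.8%), Kcnc1 (54.3%) and Ltb4r1 (47.4%) regained less than Serpinb1a, and 16 regained more. Klrb1f, Ggt1, which encodes an enzyme that breaks down glutathione outside the cell, and Ltb4r1, a leukotriene receptor gene, were named after their values were seen. On the log2 scale, where the median share left was 0.149, 52 of the 194 kept a larger share of their fall than Serpinb1a at 0.227, a share that was 0.137 without DMF + GSH replicate 3. These places are given without a test, since the fall itself chose the genes and all of these values share the Ctrl and DMF libraries.

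**Figure D3:**
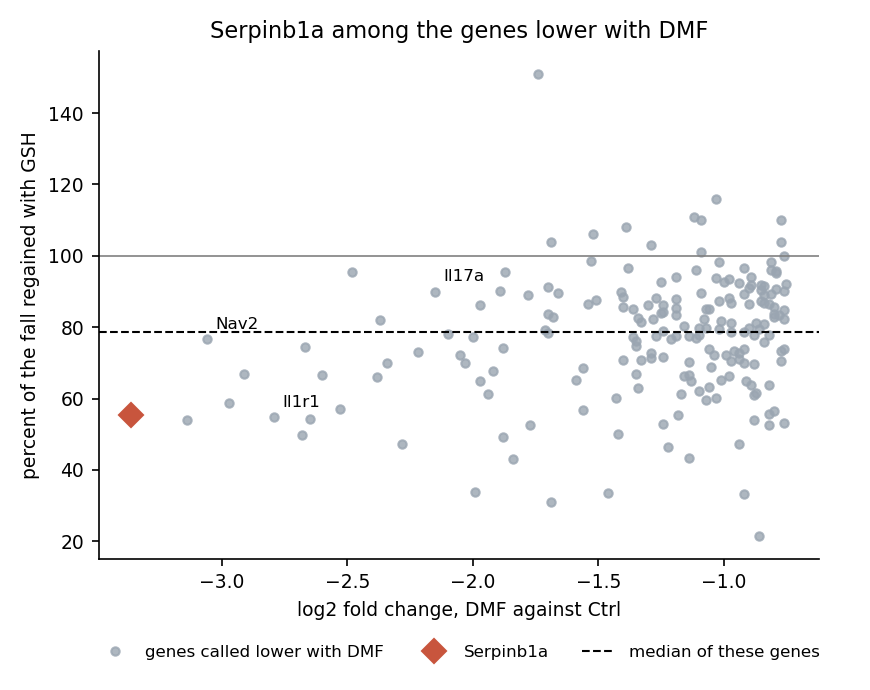
The 194 genes called lower with DMF, by log2 fold change of DMF against Ctrl (x) and by the percentage of the fall in normalized counts that was regained with DMF + GSH (y), with Serpinb1a as the red diamond, the median of 78.6% dashed, and a grey line at 100%. Serpinb1a has the lowest log2 fold change of these genes, −3.36, and lies below the median at 55.4%.

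Between DMF + GSH and DMF, 63 genes (0.543%) passed. This number was 660 with the replicate block and with 1 library left out it ranged from 0 (without DMF replicate 3 or DMF + GSH replicates 1 or 2) to 480 (without DMF replicate 2). Between DMF + GSH and Ctrl, 0 genes (0%) passed. In the latter comparison 222 of 11599 genes had an unadjusted p under 0.05 by limma with the batch, and 599 with the replicate block. The former is a smaller share than the 0.05 that a test without true differences gives on average. The 0 thus does not show that no gene differed. edgeR's quasi-likelihood test on the recovered reads called 0 genes as well. With the replicate block 1 gene passed, Serpinb1a itself, and since the gene was chosen on these levels nothing is read from it.

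Of the 26 other clade B serpins in the table, 3 reached the mean of 10 normalized counts, and 0 of these 3 passed the threshold between DMF and Ctrl by limma or by edgeR, beside 2.89% of all genes. An unadjusted p under 0.05 was found for 2 of them, Serpinb6a and Serpinb9, and for 4811 of all 11599 genes (41.5%). Serpinb6a, an inhibitor of trypsin-like proteases and of cathepsin G, had 587, 624 and 586 normalized counts in Ctrl, 439, 547 and 541 with DMF, and 624, 627 and 601 under DMF + GSH. All 3 DMF values lay below the others, and the log2 fold change was −0.24 (SE 0.0869, adjusted p = 0.0631, limma). Of the stretches of 50 bases in the Serpinb6a transcripts, 25.1% also occurred in other genes, so that its level is less certain than that of Serpinb1a.

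Serpinb9, the inhibitor of granzyme B that protects killer cells from their own protease, had its highest values with DMF. It stood at 173, 220 and 121 normalized counts in Ctrl, 363, 282 and 194 with DMF, and at 190, 184 and 124 under DMF + GSH. It was higher with DMF in all 3 replicate numbers, although the lowest DMF library overlapped with Ctrl. The log2 fold change was 0.70 (SE 0.247, adjusted p = 0.0582, limma), and with the replicate block the adjusted p was 0.000143, the lowest of its alternatives, which reached up to 0.252. It stayed below the fold threshold of 0.75. Serpinb6b, at 127 ± 48.5, 139 ± 37.9 and 108 ± 42.7 normalized counts (SD, n = 3) in Ctrl, DMF and DMF + GSH, had a log2 fold change of 0.16 (SE 0.358, adjusted p = 0.759, limma). Its 3 groups overlapped.

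Per kilobase of exon, Serpinb1a was the highest clade B serpin in Ctrl, at 421 normalized counts against 111 for Serpinb6a, 56.1 for Serpinb6b and 49.0 for Serpinb9. With DMF it was the lowest of these 4, at 40.4 against 94.1, 61.6 and 80.0. With DMF + GSH it was again the highest, at 251 against 114, 47.9 and 47.6. The other 23 members of the clade in the table were too low to be tested, and the highest of them, Serpinb5, had between 0.856 and 13.4 normalized counts.

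Of 21 serpins of other clades, 5 were tested, and their median log2 fold change between DMF and Ctrl was −0.54, against 0.01 over all genes. Serpina3g, an intracellular inhibitor of cysteine cathepsins known from activated CD8+ T cells, was the one member past the threshold, beside 1.22% of all genes called higher. It had 40.5, 14.9 and 24.2 normalized counts in Ctrl, 101, 66.8 and 52.3 with DMF, and 34.1, 26.0 and 32.1 under DMF + GSH. Every DMF library lay above all others (log2 fold change 1.49, SE 0.259, adjusted p = 0.00661, limma), and the gene passed in 13 of the 20 settings in which it was tested, with adjusted p-values of up to 0.0579. Serpinf1, which encodes the secreted factor PEDF, had 53.0, 89.2 and 66.8, then 8.46, 53.1 and 56.1, then 30.8, 78.7 and 64.2 normalized counts, with a log2 fold change of −1.17 (SE 0.359, adjusted p = 0.0374, limma). Of 21 settings it passed in 1, the replicate block (adjusted p = 0.00344, against up to 0.189 under the other alternatives). Serpine2, a thrombin inhibitor (−0.20, adjusted p = 0.167), and Serpini1, which inhibits tissue plasminogen activator (−0.54, adjusted p = 0.292), did not pass by limma.

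**Figure D4:**
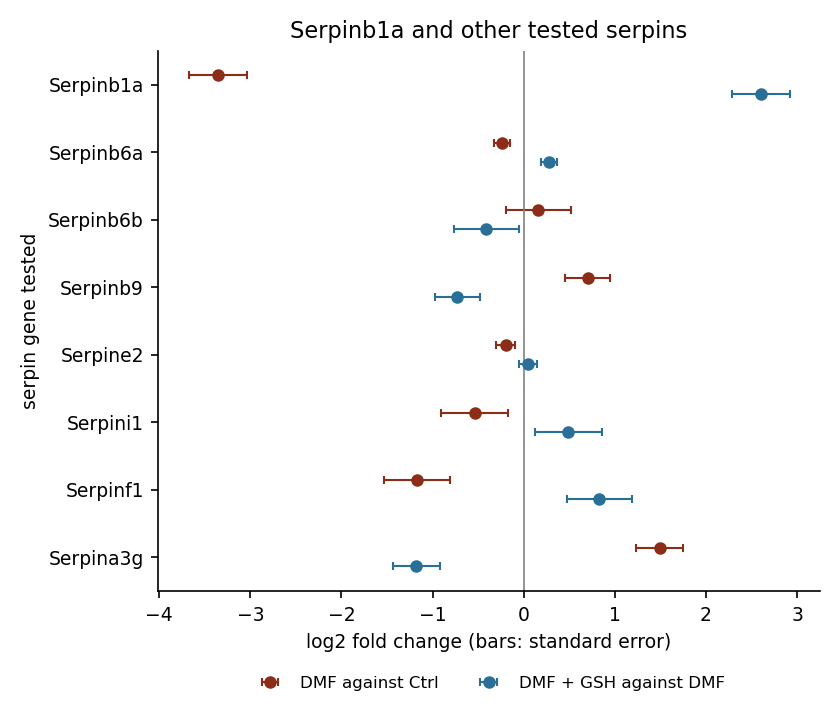
Log2 fold changes of 8 tested serpin genes between DMF and Ctrl (dark red) and between DMF + GSH and DMF (blue), with bars for the standard error of the limma fit. Serpinb1a lies at −3.36 and 2.60, and the other 7 genes lie between −1.17 and 1.49 on the first contrast.

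Serpinb1a lies in a cluster of clade B serpins, and 24 other annotated genes lie within 500 kb of it. Of these, 19 were in the table, 10 of them at 0 in all libraries, and 3 were tested, Wrnip1, Serpinb6b and Serpinb9. By limma and by edgeR, 0 of the 3 passed the threshold between DMF and Ctrl, beside 2.89% of all genes, and 1, Serpinb9, had an unadjusted p under 0.05, beside 41.5% of all genes. Wrnip1, which encodes an ATPase that works with the Werner helicase in DNA replication, is the nearest of them, at 19.5 kb. It had 890, 904 and 1106 normalized counts in Ctrl, 1157, 950 and 1182 with DMF, and 907, 961 and 1081 under DMF + GSH. Its groups overlapped, and the log2 fold change was 0.18 (SE 0.115, adjusted p = 0.257, limma).

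The classic target proteases of SERPINB1 were scarcely transcribed in these cells. Of 8 proteases of neutrophils and mast cells, all serine proteases except the carboxypeptidase Cpa3, 0 reached the mean for a test. Elane, the neutrophil elastase, had 2.08 normalized counts in Ctrl replicate 1, 1.10 in DMF + GSH replicate 1 and 0 elsewhere. Prtn3, proteinase 3, reached at most 3.12, and Ctsg, cathepsin G, at most 1.04. The summed level of the 8 genes was 8.31 to 39.0 in Ctrl, 0 to 7.70 with DMF and 12.6 to 49.5 with DMF + GSH, and the highest sums, in Ctrl replicate 2 and DMF + GSH replicate 1, came mostly from the mast cell genes Cpa3 and Cma1. Cpa3 had 0, 24.2 and 1.42 normalized counts in Ctrl, 0, 1.71 and 0.968 with DMF, and 28.6, 4.45 and 2.92 under DMF + GSH, so that Ctrl and DMF overlapped. These sums rest on few reads.

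Granzymes are the serine proteases with which cytotoxic T cells kill. Of 10 in the table, 4 were tested, with a median log2 fold change of 1.78 between DMF and Ctrl against 0.01 over all genes, and 1 passed the threshold, beside 1.22% of all genes called higher. This was Gzmb, the main granzyme of these cells, at 1184, 1529 and 2587 normalized counts in Ctrl, 6865, 7309 and 7205 with DMF, and 1592, 1258 and 1894 under DMF + GSH. The DMF libraries were closely grouped and far above all others (log2 fold change 2.09, SE 0.224, adjusted p = 0.00188, limma). With glutathione Gzmb fell by 2.19 relative to DMF (adjusted p = 0.00433, limma). Of 21 settings it passed in 18 between DMF and Ctrl (adjusted p of up to 0.0272) and in 17 between DMF + GSH and DMF (up to 0.0450), both being lost without DMF replicate 1 or DMF replicate 3, the first also without Ctrl replicate 1, and the second also without DMF + GSH replicate 1 or 2. Gzmc had 10.6 ± 2.25 normalized counts (SD, n = 3) in Ctrl, 37.6 ± 16.6 with DMF and 6.01 ± 3.56 with DMF + GSH, and fell by 2.50 with glutathione relative to DMF (adjusted p = 0.00844, limma), a call kept in 13 of 20 settings (adjusted p of up to 0.0941) and lost without the batch term, with only the 6 libraries compared, and without Ctrl replicate 1, DMF replicates 1 or 3, or DMF + GSH replicates 1 or 2. Its log2 fold change between DMF and Ctrl was 1.66 (adjusted p = 0.0123), and that of Gzma was 1.89 (adjusted p = 0.0228), by limma. Both passed with the replicate block, Gzmc also with edgeR and in 4 of 20 settings in all, and Gzma in 2 of 20.

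Cathepsins are mostly cysteine and aspartic proteases of the lysosome. Of 13 in the table, 10 were tested, and 0 passed the threshold between DMF and Ctrl by limma or by edgeR, with an unadjusted p under 0.05 in 7, beside 41.5% of all genes. The log2 fold change was below 0 in 8 of the 10, with a median of −0.32 against 0.01 over all genes. Ctsb, cathepsin B, had 2943, 3558 and 3572 in Ctrl, 2055, 2958 and 2475 with DMF, and 3018, 3760 and 3193 under DMF + GSH, with a log2 fold change of −0.44 (SE 0.089, adjusted p = 0.00942, limma), below the fold threshold. Ctsw, a cathepsin of cytotoxic lymphocytes (−0.26, adjusted p = 0.112), and Ctsd, cathepsin D (−0.04, adjusted p = 0.748), did not pass. Ctso passed with the replicate block and without Ctrl replicate 3, at −0.84 (SE 0.216, adjusted p = 0.0194 in the limma fit with the batch) and 219 ± 62.2, 120 ± 22.3 and 206 ± 42.6 normalized counts (SD, n = 3).

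Caspases are the proteases of cell death and inflammation. Of 10 in the table, 8 were tested and 0 passed between DMF and Ctrl by limma or by edgeR, with an unadjusted p under 0.05 in 4, beside 41.5% of all genes, and a median log2 fold change of −0.25. Those with the highest normalized counts were Casp2 (−0.27, adjusted p = 0.017) and Casp8 (0.03, adjusted p = 0.748), by limma, and both lay below the fold threshold. Among 16 cystatins and other protease inhibitors that are not serpins, 7 were tested and 0 passed by either tool, with an unadjusted p under 0.05 in 3, beside the same 41.5%. Timp2, an inhibitor of metalloproteinases, had a log2 fold change of −0.38 (adjusted p = 0.018), Cst3, cystatin C, one of 0.13 (adjusted p = 0.282) and Spint2, a Kunitz-type inhibitor, one of 0.19 (adjusted p = 0.173), by limma. The median of the list was 0.13. The counts of 0 in these lists stand beside the 2.89% of all genes that passed.

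Of 16 genes tied to the type 17 program, 15 were tested, and 6 were called lower and 0 higher with DMF, beside 1.67% of all genes called lower. The 6 were the cytokine genes Il17a, Il17f and Il21, the receptor genes Il1r1 and Ccr6, and Rora, a nuclear receptor that promotes IL-17 production. The study names several of them as type 17 genes in these samples, so that their direction is not independent evidence. The number was 8 with the replicate block, which added Il23r and Tmem176a. It was 1 without Ctrl replicate 1, 2 without DMF replicate 3 and 3 without Ctrl replicate 2 or without DMF replicate 1.

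Il17a had 269, 504 and 418 normalized counts in Ctrl, 31.7, 146 and 136 with DMF, and 276, 398 and 429 under DMF + GSH. Every DMF library was below all others, whereas Ctrl and DMF + GSH overlapped, with DMF + GSH lower in 1 of the 3 numbers. Its log2 fold change was −2.15 (SE 0.272, adjusted p = 0.00305, limma) and 89.9% of the fall returned with glutathione. Il17f had log2 fold changes of −1.39 between DMF and Ctrl (adjusted p = 0.00169) and 0.06 between DMF + GSH and Ctrl. For Serpinb1a the latter value was −0.76 and for Il1r1, the IL-1 receptor, −0.73. The difference between these genes was not tested. Among the members with the highest normalized counts, Irf4 (0.18, adjusted p = 0.158) and Stat3 (−0.06, adjusted p = 0.485), both transcription factors needed for the type 17 program, did not pass between DMF and Ctrl. Il21 had a log2 fold change of −1.34 (adjusted p = 0.00248), Ccr6 one of −1.88 (adjusted p = 0.00635) and Rora one of −0.88 (adjusted p = 0.00543), by limma.

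The 10 genes whose profile over the 9 libraries was most like that of Serpinb1a were found by the root mean square difference of log2(normalized count + 1) after each gene was centred on its own mean. A small value means that a gene fell, returned and varied between replicate numbers by the same amounts. The value was 0.220 for Nav2, 0.379 for Cacna1i, 0.464 for Mgll, 0.466 for Xkrx, 0.467 for Mmp15, 0.482 for Kcnc1, 0.516 for Pygl, 0.536 for Ppp1r14c, 0.548 for Atp6v0d2 and 0.552 for Il1r1. The median over all genes tested was 1.5, and a gene with no variation would have 1.49. The likeness rests on the same contrasts that chose Serpinb1a and is given as a description.

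Nav2, a neuron navigator gene on chromosome 7, stood closest. It had 511, 654 and 310 normalized counts in Ctrl, 42.3, 92.5 and 43.6 with DMF, and 386, 513 and 273 under DMF + GSH. Like Serpinb1a it was highest in replicate 2 of every group. Its log2 fold change was −3.06 between DMF and Ctrl, and −0.31 between DMF + GSH and Ctrl, against −0.76 for Serpinb1a. Mgll, which encodes monoacylglycerol lipase, had 107 ± 20.7, 20.0 ± 5.69 and 77.3 ± 16.2 normalized counts (SD, n = 3) in the 3 groups. Il1r1, also one of the type 17 genes, had 531, 792 and 623 in Ctrl, 49.7, 129 and 119 with DMF, and 262, 524 and 415 under DMF + GSH. In Il1r1 replicate 1 was the lowest of each group, whereas in Serpinb1a it was replicate 3.

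The remaining members were the calcium channel gene Cacna1i, the potassium channel gene Kcnc1, Xkrx, the membrane metalloproteinase gene Mmp15, the glycogen phosphorylase gene Pygl, the phosphatase inhibitor gene Ppp1r14c and the proton pump subunit gene Atp6v0d2. Their Ctrl means ranged from 17.4 (Cacna1i) to 91.3 (Kcnc1) normalized counts, so that they rest on far fewer reads than Serpinb1a. The set depends on the measure. With a pseudocount of 4 in place of 1, 6 of the 10 were shared, and by Pearson correlation, which does not regard the size of a change, 2 of the 10 were shared, Mgll and Nav2.

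**Figure D5:**
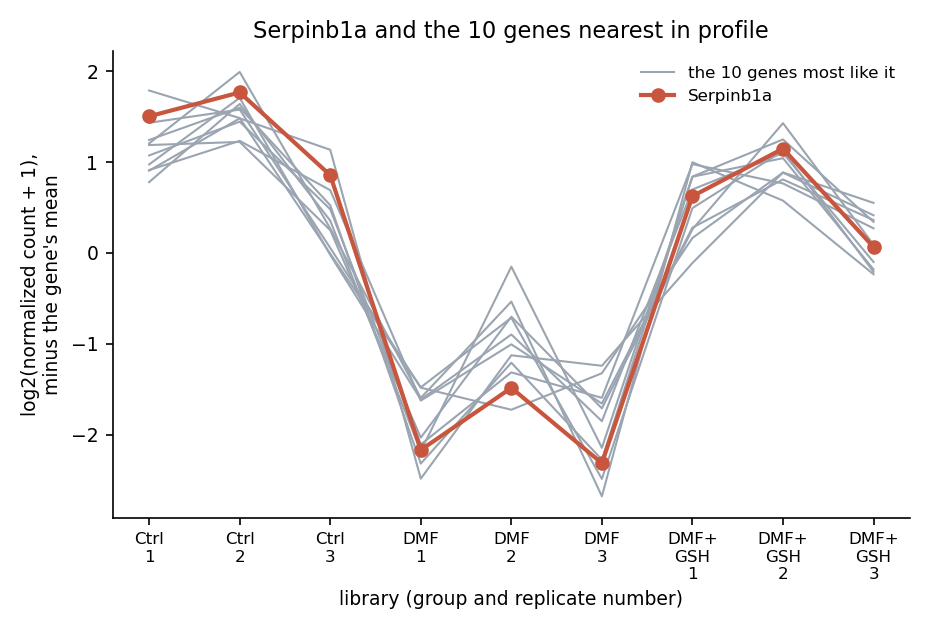
Serpinb1a (red) and the 10 genes nearest in profile (grey) over the 9 libraries, as log2(normalized count + 1) minus each gene's own mean. All lines drop in the DMF libraries and rise again with DMF + GSH, and the zigzag of Serpinb1a between replicate numbers is seen in several of them.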

How the data were processed

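The authors aligned single reads of 50 bases to GRCm38 with STAR 2.4.0b, as the submitters' processing notes and the study's methods give it, counted them per gene with featureCounts and fitted DESeq2 with the preparation batch (replicate 1, against replicates 2 and 3) in the model. They deposited a signal per gene and library, the read count divided by a factor for the library (normalized count). Whole multiples of a library's smallest step made up 100% of its nonzero values (tolerance 0.01 reads), so that reads could be recovered. The authors' own columns of fold changes and p-values for Ctrl and DMF were not used. The poly(A) kit named in the labels does not mark strand, and the labels and the methods differ on the reagent, the RNA amount and the RNA quality.

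The test was limma-trend (limma 3.58.1, R 4.3.3). It modelled log2(normalized count + 1) by group and batch over all 9 libraries, for 11599 genes whose mean reached 10, with Benjamini-Hochberg adjustment. A fold change on this scale understates that of low genes. The step was tested on simulated data. edgeR 4.0.16 was an alternative, run on the recovered reads, beside other pseudocounts, minimums, scalings, designs and each library left out. The design had foreseen edgeR as the main test only for whole counts.

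After subtraction of group means, libraries with the same replicate number correlated over genes with 0.447 to 0.578 (9 pairs), so that the numbers in the labels pair the samples. Those with different numbers correlated with at most −0.0621 (18 pairs). Subtracting the mean of 3 libraries itself pushes these latter values below 0, so that they are no separate evidence of pairing. The report gives the replicate block where it changes a call stated there. Calls of other genes and comparisons also changed with it. Serpinb1a and the gene lists were chosen with earlier results of these data known. Genes were named by rule: the 10 nearest in profile, members of lists that were called or among the 3 highest by mean, and tested neighbours within 500 kb. A few listed genes are counted in their lists but not reported here. Positions, exons and sequences come from GENCODE vM21 (GRCm38), in which 40254 gene identifiers were found. Python 3.11.15 with SciPy 1.17.1, pandas 2.3.3 and Matplotlib 3.10.9 made the tables and figures. Human samples, the promoter and the protein sequence of Serpinb1a were not analysed here.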

Additional observations from a re-analysis of the deposited data

How the results depend on the processing

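The log2 fold changes of Serpinb1a kept their direction under every alternative. Those that kept all libraries (other pseudocounts, minimums, scalings, designs and edgeR) moved them by less than the spread between replicates. With 1 library left out they ranged from −3.65 to −3.15 between DMF and Ctrl, from 2.31 to 2.90 between DMF + GSH and DMF and from −1.05 to −0.46 between DMF + GSH and Ctrl, and the share of the fall left with glutathione ranged from 0.137 (without DMF + GSH replicate 3) to 0.313 (without DMF + GSH replicate 2).

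The number of genes called was less stable. Between DMF and Ctrl it was 335, against 789 with the replicate block, 43 with only the 6 libraries compared and 2 to 680 with 1 library left out. Between DMF + GSH and DMF it was 63, against 273 without a minimum, 28 without the batch term, 660 with the replicate block, 5 with only the 6 libraries compared, 99 with robust eBayes and 0 to 480 with 1 library left out. Between DMF + GSH and Ctrl it was 0, and 1 with the replicate block. Cathepsins called between DMF and Ctrl were 0, against 1 with the replicate block and 0 to 1 with 1 library left out, and type 17 genes were 6, against 8 with the replicate block and 1 to 7 with 1 library left out. Of the 10 genes nearest in profile, 2 were shared with Pearson correlation and 6 with a pseudocount of 4. Beyond the fewer samples of some settings, the cause was not tested. For clade B serpins and for neighbours within 250, 500 and 1000 kb the number stayed at 0. Depth limits the genes under 10 normalized counts, which includes most serpins, and the DMF level of Serpinb1a, which rests on 74 to 150 reads.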
